A study of Mus musculus with 8 samples.

Results

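Thalamic genes are described here in RNA sequencing of mouse brain. The 9 genes, Tcf7l2, Prkcd, Slc17a6, Shox2, Lef1, Gbx2, Calb2, Rora and Pou4f1, were chosen by name as a list of genes known from the thalamus and the adjoining habenula, and each had 1 row among the 54532 genes of the count table. All 9 were among the 17182 genes with enough reads to be tested. The 8 libraries came from brains of PBS-perfused mice in 4 groups of 2. The CAA stress group was mice with cerebral amyloid angiopathy (CAA, amyloid in the walls of brain vessels) that underwent chronic restraint stress, and the CAA mock group was such mice with mock treatment. The WT stress group was wild-type mice under the same restraint, and the WT mock group was mock-treated wild-type mice. The sources used here do not state the alleles behind CAA, nor the strain, age or sex of the mice. The brain region that was extracted is also not stated. CAA stress 1 denotes replicate 1 of the CAA stress group, and so on. The titles do not say that replicates are separate animals, so p-values reflect only how these libraries vary.

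The thalamus relays sensory and motor signals to the cortex, and nearly all of its relay neurons are glutamatergic. The transcription factor Tcf7l2, which acts with beta-catenin at the end of the Wnt pathway, is the best known marker of the thalamus and habenula in the adult forebrain, and its relative Lef1 marks subsets of these neurons. Gbx2 and Shox2 are homeobox factors of the developing and adult thalamus, and Pou4f1 is a POU homeodomain factor of the habenula. Rora is a nuclear receptor of sensory relay neurons, also found in cerebellum and cortex. Slc17a6 encodes VGLUT2, the vesicular glutamate transporter of subcortical neurons. Prkcd, a protein kinase C, and Calb2, the calcium-binding protein calretinin, are expressed in sets of thalamic neurons and also elsewhere, Calb2 widely in interneurons and olfactory bulb.

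Promoter sequence was looked at because 2 members, Tcf7l2 and Lef1, encode factors that bind the core letters CTTTGA. RefSeq on build GRCm38.p6 gave 14 promoters for 8 of the 9 genes. A match to CTTTGA on either strand, within 250 bases before the start site, was present in 3 of the 14, at 1 start each of Shox2, Prkcd and Lef1. Over all 32851 promoters of that length 13.8% held one. The homeodomain core TAATTA was present in 1 of the 14 (at a start of Slc17a6), and in 4.84% of all promoters. The 3 promoters with a TCF and LEF core are shown 5′ to 3′ in the direction of transcription, ending 1 base before the start site, with the core in capitals. Each match reads TCAAAG, the core on the other strand. A match is a description of letters, not of binding.
Shox2, chr3:66981772-66982021, minus strand: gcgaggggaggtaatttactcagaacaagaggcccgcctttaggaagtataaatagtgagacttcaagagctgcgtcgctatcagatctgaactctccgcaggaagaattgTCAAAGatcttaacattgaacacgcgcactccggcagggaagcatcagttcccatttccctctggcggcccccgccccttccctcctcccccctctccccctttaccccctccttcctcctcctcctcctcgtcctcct
Prkcd, chr14:30626209-30626458, minus strand: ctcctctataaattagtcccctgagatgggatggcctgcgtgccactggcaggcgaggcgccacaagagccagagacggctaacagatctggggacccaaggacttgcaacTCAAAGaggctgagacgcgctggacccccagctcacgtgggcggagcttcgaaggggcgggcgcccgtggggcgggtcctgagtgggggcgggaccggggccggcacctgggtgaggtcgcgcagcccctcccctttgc
Lef1, start 4 of its listed starts, chr3:131156044-131156293, plus strand: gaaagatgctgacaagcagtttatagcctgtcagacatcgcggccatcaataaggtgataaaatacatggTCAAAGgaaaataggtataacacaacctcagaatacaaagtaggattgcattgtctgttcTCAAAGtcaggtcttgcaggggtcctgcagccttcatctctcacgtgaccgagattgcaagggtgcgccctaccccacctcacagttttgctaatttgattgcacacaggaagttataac
The match began 139 bases before the start in both Shox2 and Prkcd, and 180 and 120 bases before it in Lef1. The promoters of Tcf7l2, Gbx2, Rora and Pou4f1 held neither set of letters.

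The libraries held 17275201 to 18894657 counts. Markers of neurons (5 of 5), astrocytes (5 of 5) and myelinating oligodendrocytes (8 of 8) had reads in every library, as the tissue label states. CAA stress 1 and WT mock 1 had 3340 and 4575 counts of Xist and 0 counts of 4 Y-linked genes, and the other 6 libraries were male by the same genes. Levels below are CPM (counts scaled to the TMM-normalised library size) unless FPKM, which is per gene length, is named. In bulk RNA fewer cells of a type and less RNA per cell cannot be told apart.

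Levels of the thalamic and habenular transcription factors split the 2 libraries of each group. Shox2 (ENSMUSG00000027833, chromosome 3, 66971727 to 66981771, minus strand of mm10) had 327 and 0 counts in CAA stress 1 and 2, 45 and 341 in CAA mock 1 and 2, 2 and 163 in WT stress 1 and 2, and 174 and 1 in WT mock 1 and 2. It was thus above 160 counts in 1 library of each group, at 0 to 2 in 3 libraries, and between these in CAA mock 1. The 0 counts in CAA stress 2 allow up to 0.161 CPM (3 counts; counting error only), where CAA stress 1 had 17.8 CPM. Shox2 overlaps Rsrc1, on the other strand, by 382 bases, and whether counting used strand is not given; Rsrc1 had 820 counts in CAA stress 2, where Shox2 had 0.

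Pou4f1 (ENSMUSG00000048349, chromosome 14, 104461676 to 104467999, minus strand) showed the same split. It had 61 and 1 counts in CAA stress 1 and 2, 7 and 98 in CAA mock 1 and 2, 2 and 83 in WT stress 1 and 2, and 67 and 0 in WT mock 1 and 2. The libraries with Shox2 above 160 counts were those with Pou4f1 above 60, and the CAA and WT libraries overlapped throughout. The 0 counts in WT mock 2 allow up to 0.168 CPM.

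Gbx2 (ENSMUSG00000034486, chromosome 1, 89927956 to 89931179, minus strand) was the member with the fewest reads. It had 59 and 9 counts in CAA stress 1 and 2, 18 and 56 in CAA mock 1 and 2, 6 and 46 in WT stress 1 and 2, and 13 and 7 in WT mock 1 and 2. CAA stress 1, CAA mock 2 and WT stress 2 stood high and both WT mock libraries were low, so that Gbx2 did not follow Shox2 in WT mock 1. An overlapping transcript on the other strand, D130058E05Rik, had 26 and 1 counts in CAA stress 1 and 2, 26 and 20 in CAA mock 1 and 2, 7 and 15 in WT stress 1 and 2, and 3 and 6 in WT mock 1 and 2. It was higher in the same library as Gbx2 in CAA stress and WT stress, and higher in both CAA mock than in both WT mock libraries, as Gbx2 was. Reads of the pair cannot be told apart if counting ignored strand.

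Tcf7l2 (ENSMUSG00000024985, chromosome 19, 55741810 to 55933654, plus strand) lay at 38.0 and 4.55 CPM in CAA stress 1 and 2, 16.1 and 50.8 CPM in CAA mock 1 and 2, 6.29 and 25.6 CPM in WT stress 1 and 2, and 26.5 and 7.35 CPM in WT mock 1 and 2. The highest library, CAA mock 2, held 11.1 times the level of the lowest, CAA stress 2, and both are CAA. Lef1 (ENSMUSG00000027985, chromosome 3, 131110471 to 131224356, plus strand), expressed also in brain endothelium, lay at 5.94 and 1.77 CPM in CAA stress 1 and 2, 1.99 and 7.44 CPM in CAA mock 1 and 2, 2.74 and 4.69 CPM in WT stress 1 and 2, and 5.86 and 2.02 CPM in WT mock 1 and 2. The same library of each group was the higher one for both factors. Summed endothelial markers lay at 367 and 261 CPM in CAA stress 1 and 2, 246 and 354.5 CPM in CAA mock 1 and 2, 309 and 383 CPM in WT stress 1 and 2, and 316 and 297 CPM in WT mock 1 and 2, with all 9 detected. They were higher in the same library of each group as Lef1, and their part in its values was not tested.

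Slc17a6 (ENSMUSG00000030500, chromosome 7, 51622006 to 51671119, plus strand) lay at 139 and 38.7 CPM in CAA stress 1 and 2, 77.9 and 180 CPM in CAA mock 1 and 2, 52.2 and 89.5 CPM in WT stress 1 and 2, and 112 and 43.2 CPM in WT mock 1 and 2. The 4 highest libraries were again CAA mock 2, CAA stress 1, WT mock 1 and WT stress 2. As a share of the FPKM of the 3 vesicular glutamate transporter genes (Slc17a6, the cortical Slc17a7 and the rare Slc17a8), Slc17a6 made up 13.2% and 2.27% in CAA stress 1 and 2 and 6.28% and 20.8% in CAA mock 1 and 2. It made up 4.64% and 7.58% in WT stress 1 and 2 and 9.17% and 4.07% in WT mock 1 and 2. Slc17a7, at 306 FPKM in CAA stress 2 and 126 FPKM in CAA mock 2, was highest where Slc17a6 was lowest and lowest where Slc17a6 was highest. In the other 6 libraries Slc17a7 lay between 166 FPKM (CAA stress 1) and 213 FPKM (CAA mock 1).

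Prkcd (ENSMUSG00000021948, chromosome 14, 30595354 to 30626210, minus strand) lay at 79.3 and 18.6 CPM in CAA stress 1 and 2, 16.5 and 45.2 CPM in CAA mock 1 and 2, 7.12 and 36.8 CPM in WT stress 1 and 2, and 12.3 and 11.1 CPM in WT mock 1 and 2. It differed from Tcf7l2 in WT mock 1, where Prkcd was near its level in WT mock 2. Both CAA mock libraries lay above both WT mock libraries for Prkcd and for Gbx2, and for none of the other 7 genes; 16.2% of all genes tested did so. Among the 9 genes 0 lay lower in both CAA mock libraries (16.7% of genes tested), and 0 separated CAA stress from WT stress (19.5% higher, 20.4% lower). None of the 9 separated WT stress from WT mock (13.2% of genes tested higher, 13.5% lower) or CAA stress from CAA mock (18.3% higher, 19% lower). With 4 libraries a side, 0 of 9 separated CAA from WT (2.0% of genes tested higher, 2.76% lower) and 0 of 9 separated stress from mock (0.96% higher, 0.867% lower).

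Calb2 and Rora varied least. Calb2 (ENSMUSG00000003657, chromosome 8, 110137502 to 110168210, minus strand) lay at 84.8 and 52.6 CPM in CAA stress 1 and 2, 56.2 and 82.2 CPM in CAA mock 1 and 2, 55.2 and 111 CPM in WT stress 1 and 2, and 34.4 and 67.1 CPM in WT mock 1 and 2. Its lowest library was WT mock 1, which was among the 4 highest for Tcf7l2, Slc17a6 and Shox2. Summed markers of the olfactory bulb, a region rich in Calb2, lay at 12.5 and 53.1 CPM in CAA stress 1 and 2, 10.6 and 7.49 CPM in CAA mock 1 and 2, 78.7 and 75.7 CPM in WT stress 1 and 2, and 5.70 and 71.4 CPM in WT mock 1 and 2. They were low with Calb2 in WT mock 1 but also low in CAA stress 1 and CAA mock 2, where Calb2 was high. Summed interneuron markers lay at 710 and 980 CPM in CAA stress 1 and 2 and 824 and 659 CPM in CAA mock 1 and 2. They lay at 907 and 1083 CPM in WT stress 1 and 2 and 687 and 909 CPM in WT mock 1 and 2. They were higher in the same library as Calb2 in both WT groups and lower in it in both CAA groups. The part of either list in the Calb2 values was not tested. Rora (ENSMUSG00000032238, chromosome 9, 68653786 to 69388246, plus strand) lay at 126 and 68.2 CPM in CAA stress 1 and 2, 82.5 and 154 CPM in CAA mock 1 and 2, 116 and 103 CPM in WT stress 1 and 2, and 138 and 95.9 CPM in WT mock 1 and 2. The range of Rora was 2.26-fold and that of Calb2 3.21-fold.

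Compared per gene length, Calb2 was the highest member with a median of 35.1 FPKM over the 8 libraries, followed by Slc17a6 at 15.3 FPKM, Rora at 8.31 FPKM, Prkcd at 3.14 FPKM, Tcf7l2 at 2.36 FPKM and Shox2 at 1.74 FPKM. Lef1, Gbx2 and Pou4f1 had median levels of 0.418, 0.398 and 0.395 FPKM. The ranges of neighbours in this order overlapped, and Shox2 reached 5.76 FPKM in CAA mock 2, against 5.77 FPKM for Tcf7l2 there.

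**Figure D1:**
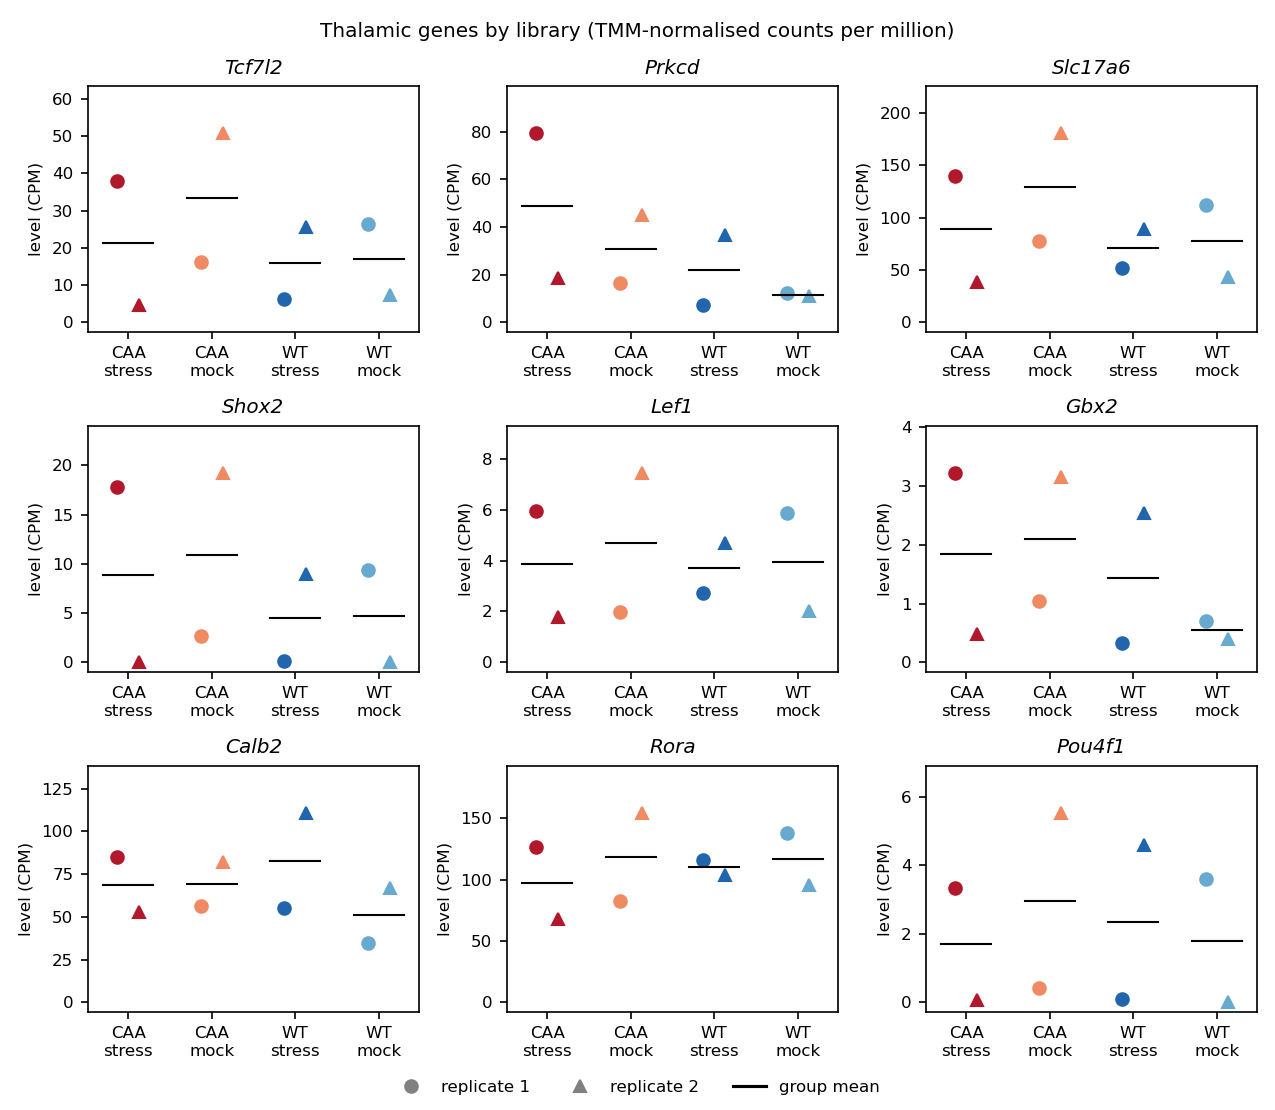
TMM-normalised level (CPM, linear axis from 0) of each of the 9 genes by group; circles are replicate 1, triangles replicate 2, and horizontal lines the mean of 2 libraries. In CAA stress 1, CAA mock 2, WT stress 2 and WT mock 1 Shox2 lay between 8.98 and 19.2 CPM, and in the other 4 libraries it lay between 0 and 2.63 CPM.

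The difference between the 2 libraries of a group was larger for most of these genes than for nearly all other genes. With CAA stress 1, CAA mock 2, WT stress 2 and WT mock 1 each set over the other library of their group, the log2 difference was positive for 9 of 9 genes in CAA stress, 9 of 9 in CAA mock, 8 of 9 in WT stress (all but Rora) and 8 of 9 in WT mock (all but Calb2). Its median over the 9 genes was 2.08 in CAA stress, 1.49 in CAA mock, 2.004 in WT stress and 1.38 in WT mock. Over all genes tested the median size of the difference was 0.28 in CAA stress, 0.28 in CAA mock, 0.25 in WT stress and 0.23 in WT mock. Shox2 differed by 7.34 in CAA stress and 5.37 in WT stress, a size reached by 5 and 3 of the 17182 genes. Shox2 had 0 counts in CAA stress 2 and 2 counts in WT stress 1. The size of these differences thus depends on the prior count of 2 added before the log. These 4 libraries were chosen from the values, so the differences describe them and carry no test.

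**Figure D2:**
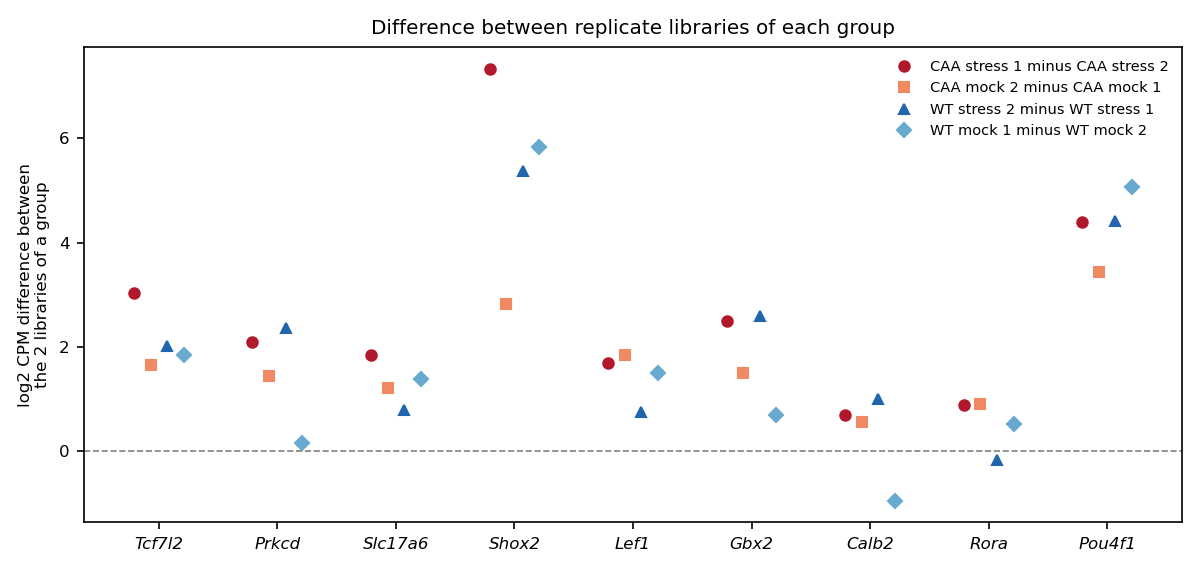
Difference in log2 CPM (prior count 2) between the 2 libraries of each group, for each gene; 1 symbol per group, and the dashed line marks no difference. Shox2 and Pou4f1 lay farthest from 0, at 2.82 to 7.34 and 3.44 to 5.07, and Rora lay between -0.17 and 0.90. The highest values of Shox2 and Pou4f1 each involve a library with 0 counts, so their size depends on the prior count.

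The biological coefficient of variation that edgeR estimated within groups was 2.07 for Shox2, 1.83 for Pou4f1, 0.884 for Tcf7l2, 0.720 for Prkcd, 0.709 for Gbx2, 0.579 for Slc17a6 and 0.553 for Lef1. The median over all genes tested was 0.188, and these 7 genes lay at its 97.3th percentile or above. Calb2 at 0.326 and Rora at 0.267 lay at the 79.4th and 69.7th percentiles. CAA mock 2, CAA stress 1, WT mock 1 and WT stress 2 were the 4 highest libraries for 5 of the 9 genes (Tcf7l2, Slc17a6, Shox2, Lef1 and Pou4f1), and for 320 genes in all, 1.86% of those tested. These 4 libraries were chosen from the values, so the count of 5 of 9 beside that share carries no test. Of these 4, CAA stress 1 and WT mock 1 are the female libraries and the other pair is male; fold changes of the 9 genes in the 6 male libraries alone are given with the limits at the end.

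Other regional markers moved with the thalamic genes in part. Each list is given as the mean log2 level of its genes, after the 8-library mean of each gene was set to 0. The 14 other genes of thalamic relay neurons lay at 0.65 and -0.44 in CAA stress 1 and 2, -0.15 and 0.57 in CAA mock 1 and 2, -0.48 and 0.32 in WT stress 1 and 2, and -0.033 and -0.44 in WT mock 1 and 2. As a list mean they were thus higher in the same library of each group, by less than the 9 genes. Not every gene of the list followed. Lhx2 was lower in that library in CAA stress, CAA mock and WT mock, and Kitl in CAA mock, WT stress and WT mock. Cacna1g was lower in it in CAA stress, Adarb1 in WT stress, and Foxp2 and Synpo2 in WT mock. The remaining genes of the list were higher in it in every group. Midbrain markers were highest in CAA mock 2 (2.42) and CAA stress 1 (1.43) and at or below 0.024 in the other 6 libraries. In sum they lay between 18.5 and 51.5 CPM in CAA libraries and between 12.7 and 18.6 CPM in WT libraries. Of 9 midbrain genes 5 were detected in both CAA stress libraries, 8 in CAA mock, 4 in WT stress and 4 in WT mock. Habenular markers were highest in WT stress 2 (1.07). Hippocampal markers were highest in WT mock 1 (1.44) and CAA mock 2 (1.198). Cerebellar markers, of a region that also expresses Rora, lay at 0.91 and -0.69 in CAA stress 1 and 2, -0.26 and 1.39 in CAA mock 1 and 2, -1.12 and -0.53 in WT stress 1 and 2, and 0.86 and -0.56 in WT mock 1 and 2 (4 of 7 tested). In list mean, the midbrain, habenular, hippocampal and cerebellar lists were each higher in the same library of all 4 groups as the 9 genes. So was the list of inhibitory neurons of the reticular thalamus, zona incerta and pretectum. The habenular means in WT mock 1 and 2 were close, at -0.37 and -0.42. Gpr151, Tac2, Chrnb4, Gng8 and Lrrc55 were lower in WT mock 1 than in WT mock 2, and Chrnb3, Chrna3, Nwd2 and Htr5b were higher. The part of these lists in the thalamic values was not tested.

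Striatal and hypothalamic markers moved across the thalamic pattern, while those of myelinating oligodendrocytes moved with it. Striatal markers were low in CAA mock 2 (-2.06) and WT mock 1 (-2.24), which were high in Shox2, and stood at 0.86 in CAA stress 1 and 0.59 in WT stress 2, which were high in Shox2 too. In summed level the 12 striatal genes lay at 195 CPM in CAA mock 2 and 218 CPM in WT mock 1 and at 806 to 1590 CPM in the other libraries, with all 12 detected in each group. The hypothalamic genes, whose neurons also use Slc17a6, had 7.60 CPM in CAA mock 2 and 2.31 CPM in WT mock 1 in sum, and 43.4 to 162 CPM in the other libraries, with Kiss1 at 0 throughout. Summed oligodendrocyte markers, a lineage that also expresses Tcf7l2, lay at 14170 and 6083 CPM in CAA stress 1 and 2, 9510 and 15440 CPM in CAA mock 1 and 2, 5953 and 8768 CPM in WT stress 1 and 2, and 9555 and 7419 CPM in WT mock 1 and 2. They were higher in the same library of each group as Tcf7l2, and their part in its values was not tested. The 4 genes of newly formed oligodendrocytes, the stage known for Tcf7l2, lay in sum at 78.5 and 75.9 CPM in CAA stress 1 and 2. They lay at 69.2 and 92.0 CPM in CAA mock 1 and 2, 65.5 and 64.9 CPM in WT stress 1 and 2, and 71.7 and 77.4 CPM in WT mock 1 and 2. In sum they were higher in the same library as Tcf7l2 in both CAA groups and lower in it in both WT groups. Their mean log2 level was higher in that library in all 4 groups. The part of these 4 genes in the Tcf7l2 values was not tested. Markers of neurons of any type lay between -0.22 and 0.12 in all 8 libraries.

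**Figure D3:**
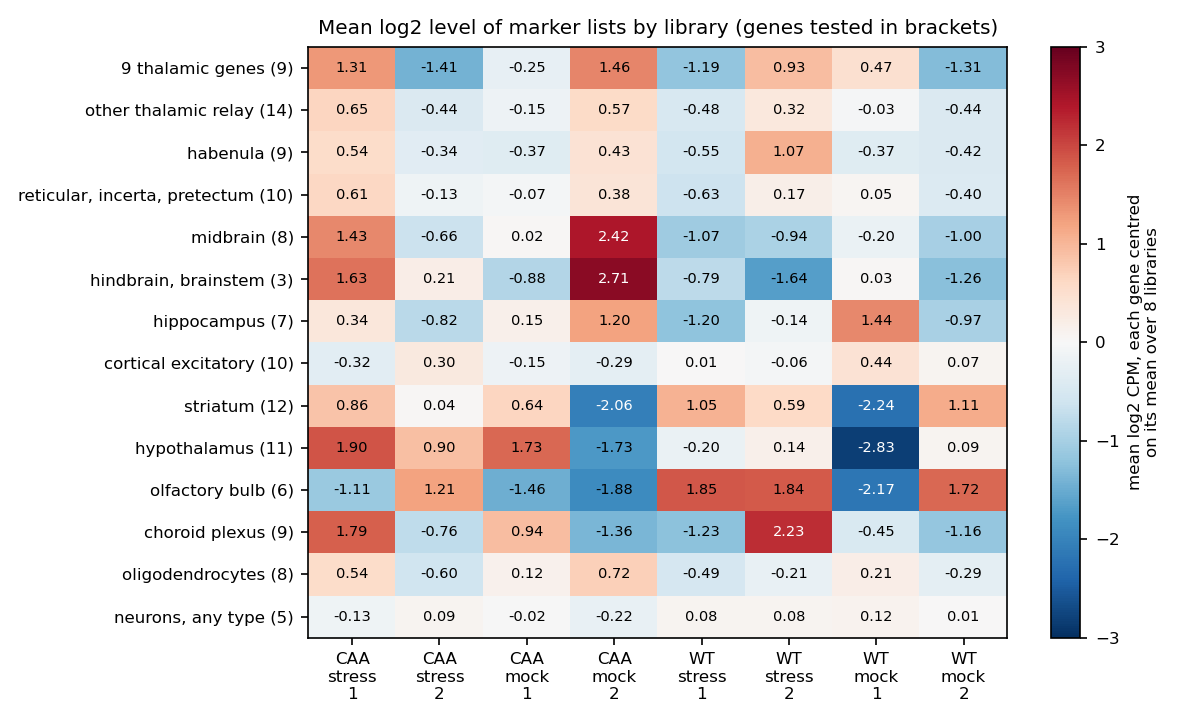
Mean log2 CPM of marker lists by library, with the 8-library mean of each gene set to 0; columns are libraries, rows are lists with the number of genes tested in brackets, and red is above and blue below the mean. The 9 thalamic genes lay at 1.31 in CAA stress 1, 1.46 in CAA mock 2, 0.93 in WT stress 2 and 0.47 in WT mock 1, and at or below -0.25 in the other 4 libraries.

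Averaged over stress and mock, none of the 9 genes passed the test between CAA and WT (edgeR quasi-likelihood test, Benjamini-Hochberg over 17182 genes, threshold 0.05); 0.0116% of genes tested passed, which is 2 genes. At an unadjusted edgeR p under 0.05 the count was 0 of 9, against 8.38% of genes tested. DESeq2 called 0 of 9, against 0.268% of genes tested, and had 0 of 9 at an unadjusted p under 0.05, against 7.48%. Tcf7l2 averaged 27.4 ± 20.9 CPM in CAA and 16.4 ± 11.1 CPM in WT (SD, n = 4 each), a log2 fold change of 0.70 ± 0.998 (SE). Slc17a6 averaged 109 ± 63.0 CPM in CAA and 74.3 ± 32.3 CPM in WT, with a log2 fold change of 0.53 ± 0.62. Shox2 averaged 9.92 ± 10.01 CPM in CAA and 4.63 ± 5.25 CPM in WT, with a log2 fold change of 1.09 ± 1.98. In each case the difference was smaller than the SD of the CAA libraries; for Slc17a6 and Shox2 it was slightly larger than the SD of the WT libraries.

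Prkcd and Gbx2 had the largest differences between genotypes among the 9. Prkcd averaged 39.9 ± 29.3 CPM in CAA and 16.8 ± 13.5 CPM in WT (SD, n = 4 each; log2 fold change 1.28 ± 0.80, edgeR adjusted p = 0.699). Gbx2 averaged 1.98 ± 1.42 CPM in CAA and 0.989 ± 1.04 CPM in WT (log2 fold change 1.15 ± 0.78, edgeR adjusted p = 0.699). Lef1 had a log2 fold change of 0.16 ± 0.58, Pou4f1 of 0.12 ± 1.80, Calb2 of 0.087 ± 0.33 and Rora of -0.079 ± 0.27. Of the 9 values 8 were positive, with a median of 0.53, where 50.2% of genes tested had a positive value and their median was 0.0011. Single libraries set this count. Without CAA stress 1 the values of 2 genes were positive, and the median was -0.33. It was 5 of 9 without CAA mock 2 and 5 of 9 without WT stress 1.

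Stress against mock, averaged over the genotypes, gave no call either (edgeR: 0 of 9 adjusted, 0.0% of genes tested; 0 of 9 at an unadjusted p under 0.05, against 3.82%; DESeq2: 0 of 9, against 0.0175%, and 0 of 9 unadjusted, against 3.7%). Prkcd averaged 35.4 ± 31.7 CPM in stress and 21.3 ± 16.1 CPM in mock (SD, n = 4 each; log2 fold change 0.79 ± 0.80, edgeR adjusted p = 0.924). Calb2 averaged 75.8 ± 27.5 CPM in stress and 60.0 ± 20.1 CPM in mock (log2 fold change 0.35 ± 0.33, edgeR adjusted p = 0.920). Gbx2 had a log2 fold change of 0.59 ± 0.78. The other 6 lay below 0, with Tcf7l2 at -0.37 ± 0.995, Slc17a6 at -0.34 ± 0.62, Pou4f1 at -0.22 ± 1.80, Lef1 at -0.19 ± 0.58, Rora at -0.19 ± 0.27 and Shox2 at -0.18 ± 1.96. Without CAA mock 2 all 9 values were positive, and without CAA stress 2 or WT mock 1 8 of 9 were positive. The comparison of stress with mock shares its libraries with that of CAA with WT.

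**Figure D4:**
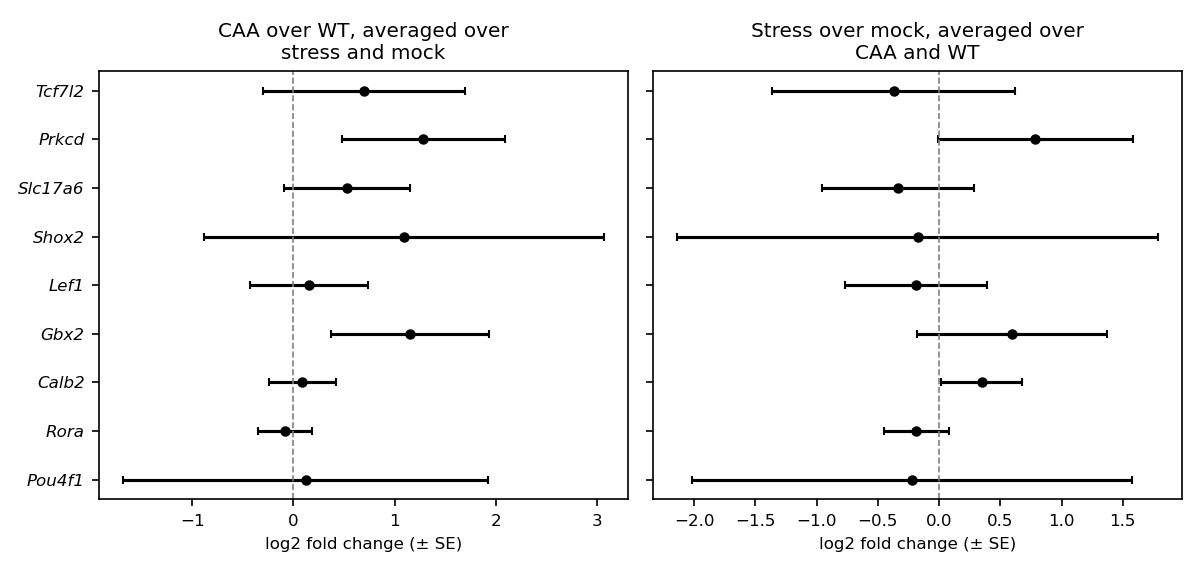
Log2 fold change of each gene (point) with its SE (bar) from the edgeR fit over all 8 libraries, for CAA over WT on the left and stress over mock on the right; the dashed line marks no difference. The SE ran from 0.27 for Rora to 1.98 for Shox2 in the comparison of CAA with WT, and all 9 adjusted p-values there were 0.699 or more.

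Within single groups, 2 libraries against 2, 0 of 9 genes passed in edgeR and in DESeq2 for CAA under mock (0.0116% of genes tested in edgeR, 0.116% in DESeq2) and for CAA under stress (0.0116% and 0.064%). The same held for stress in WT (0.0% in both tools), stress in CAA (0.0% and 0.0815%) and the interaction (0.0% and 0.0233%). At an unadjusted p under 0.05 edgeR had 0 of 9 in each, against 4.0% of genes tested for CAA under mock, 8.22% for CAA under stress, 1.59% for stress in WT, 6.94% for stress in CAA and 3.46% for the interaction. DESeq2 had 1 of 9 for CAA under mock, against 3.5% of genes tested. It had 0 of 9 in the others, against 7.64% for CAA under stress, 1.3% for stress in WT, 6.41% for stress in CAA and 2.97% for the interaction. For CAA under mock the unadjusted edgeR count was 2 of 9 with a term for sex, 2 of 9 in a fit of the 4 libraries alone, and 5 of 9 in that fit with crossed replicate numbers as a block. The smallest p in CAA under mock was that of Gbx2, at 2.10 ± 1.49 CPM in CAA mock and 0.546 ± 0.217 CPM in WT mock (SD, n = 2 each; log2 fold change 1.93 ± 1.15, edgeR adjusted p = 0.998). For CAA under stress it was Prkcd, at 49.0 ± 42.9 CPM in CAA stress and 21.9 ± 21.0 CPM in WT stress (log2 fold change 1.16 ± 1.12, edgeR adjusted p = 0.797). Calb2 led for stress in WT, at 82.9 ± 39.3 CPM in WT stress and 50.8 ± 23.1 CPM in WT mock (log2 fold change 0.71 ± 0.47, edgeR adjusted p = 0.9999), and for the interaction (-0.72 ± 0.67, edgeR adjusted p = 0.995). Rora led for stress in CAA, at 97.2 ± 41.0 CPM in CAA stress and 118 ± 50.7 CPM in CAA mock (log2 fold change -0.28 ± 0.38, edgeR adjusted p = 0.864).

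Further genes of thalamic neurons were compared between CAA and WT in the same fit, and 0 of them passed. Of 14 other relay neuron genes 12 had positive log2 fold changes (median 0.47), against 50.2% of genes tested. At an unadjusted p under 0.05 there were 3 of 14, against 8.38% of genes tested. Those with the smallest p were Kitl, the ligand of the Kit receptor, at 52.7 ± 7.398 CPM in CAA and 74.8 ± 12.4 CPM in WT (SD, n = 4 each; log2 fold change -0.50 ± 0.15, edgeR adjusted p = 0.531), the zinc finger and homeobox factor Zfhx3 (0.60 ± 0.23) and the axon guidance gene Ntng1 (0.46 ± 0.20). The 14 genes thus did not share a direction, since Kitl lay below 0 in all 8 fits that left out 1 library. Of 9 habenular genes 5 were positive (median 0.022), with Lrrc55, an auxiliary subunit of potassium channels, at -0.56 ± 0.18, the G protein subunit gene Gng8 at 0.66 ± 0.44 and Nwd2 at -0.18 ± 0.15. Of 10 genes of the reticular thalamus, zona incerta and pretectum 7 were positive (median 0.21). Among them the LIM homeobox factor Lhx1 had a log2 fold change of 1.31 ± 0.76, and Ecel1, a peptidase gene, of 0.69 ± 0.77. Sox14, a factor of pretectal and geniculate inhibitory neurons, had 11 and 3 counts in CAA stress 1 and 2, 1 and 31 in CAA mock 1 and 2, 0 in both WT stress libraries, and 25 and 0 in WT mock 1 and 2. Its reads thus lay mostly in CAA mock 2 and WT mock 1, the libraries low in striatal markers. The list split in these libraries. Gata3, Lhx1 and Pvalb were highest there, as Sox14 was. Isl1 (0 and 2 counts in CAA mock 2 and WT mock 1), Six3 (3.72 and 2.69 CPM) and Ecel1 (8.11 and 3.77 CPM) were lowest there. Spp1, Pax6 and Otx2 did neither.

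Genes of Wnt signalling, the pathway that ends at Tcf7l2 and Lef1, had 30 of 48 positive log2 fold changes in CAA over WT (median 0.051), against 50.2% of genes tested. None of the 48 passed in edgeR, against 0.0116% of genes tested, and 6 of 48 had an unadjusted p under 0.05, against 8.38%. The smallest p-values were those of 3 Frizzled receptor genes, Fzd2 (27.4 ± 6.15 CPM in CAA and 18.7 ± 3.75 CPM in WT; SD, n = 4 each; log2 fold change 0.55 ± 0.15, edgeR adjusted p = 0.526), Fzd8 (0.83 ± 0.25) and Fzd1 (0.60 ± 0.20). Among 15 relatives of the 9 genes 7 were positive (median -0.10) and 0 passed. Prkca, the alpha isoform beside Prkcd, had 158.5 and 205 CPM in CAA stress 1 and 2, 156 and 137 CPM in CAA mock 1 and 2, 286 and 259.9 CPM in WT stress 1 and 2, and 206 and 236 CPM in WT mock 1 and 2. All 4 CAA libraries lay below all 4 WT libraries, as for 2.76% of genes tested. Its log2 fold change was -0.59 ± 0.12 (edgeR adjusted p = 0.421, DESeq2 adjusted p = 0.00786). Prkcb, the beta isoform, lay at 431 ± 32.1 CPM in CAA and 546 ± 39.1 CPM in WT (-0.34 ± 0.11, edgeR adjusted p = 0.531), and Tcf7l1, a relative of Tcf7l2, had 0.45 ± 0.21. Fzd2 and Kitl passed in edgeR when no filter on low counts was used (adjusted p = 0.0364 and 0.0255), as did Prkca (0.00200).

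Likeness of pattern was measured as the root mean square difference in centred log2 CPM over the 8 libraries, among 13433 genes of at least 1 CPM. Nearest to Tcf7l2 were Epn3 (0.43), Fam19a4 (0.45) and Slitrk6 (0.56), and among the 9 genes Slc17a6 (0.48), where the own spread of Tcf7l2 was 1.198. The nearest genes to Slc17a6 were Prox1 (0.26), a homeobox factor, Tnnt1 (0.28) and Cyp2j12 (0.29). Lef1 was nearest to Slc17a6 among the 9 (0.31), and outside the 9 to Ankub1 (0.33), Kcng4 (0.34) and Tnnt1 (0.34). Among the 9 genes Shox2 and Pou4f1 were nearest to each other (1.01, with own spreads of 2.98 and 2.25). Outside the 9 both were nearest to the homeobox genes Lhx9 (1.39 for Shox2, 0.76 for Pou4f1), Irx3 (1.40 and 0.81) and Irx2 (1.54 and 0.85). All of these lay nearer to Pou4f1 than Shox2 did. Lhx9 lay at 8.18 and 0.857 CPM in CAA stress 1 and 2, 4.32 and 18.1 CPM in CAA mock 1 and 2, 1.15 and 7.99 CPM in WT stress 1 and 2, and 8.02 and 0.393 CPM in WT mock 1 and 2. Its 4 highest libraries were those of Shox2. Prkcd was nearest to the ligand gene Wnt3 (0.37), Ddc (0.46) and Nhlh2 (0.48), and among the 9 to Gbx2 (0.42). Outside the 9, Gbx2 was nearest to Nhlh2 (0.36), Slitrk6 (0.41) and Wnt3 (0.46). Rora (own spread 0.37) was nearest to Trpm3 (0.10), Fndc5 (0.13) and Esrrg (0.13). Calb2 (own spread 0.48) was nearest to Gimap6 (0.21), Fbxo36 (0.22) and Fam196b (0.22). Of the nearest genes Slitrk6, Tnnt1 and Lhx9 are on the list of other thalamic relay genes, Prox1 is on the hippocampal list and Wnt3 is on the Wnt list.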

How the data were processed

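Total brain RNA was purified on RNeasy columns and sequenced from Illumina kit libraries, per the labels' protocols. The authors' raw counts per gene were deposited with HISAT2 2.0.5, featureCounts 1.5.0-p3 and mm10 named in the submitters' processing notes; whether strand was used, and which annotation, is not given in the sources used here. FPKM values, also deposited by the authors, serve for levels between genes. Coordinates are those of the deposited tables.

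Titles gave the group and number of each sample. The 7 contrasts came from 1 edgeR fit (version 4.0.16, R 4.3.3; filterByExpr with minimum count 10 and total 15, TMM, robust quasi-likelihood on 4 group means, 4 residual degrees of freedom), with two-sided p-values adjusted over 17182 genes and a threshold of 0.05. The fit was also run on counts simulated with the spread usual for genes of each level. The own spread of the 9 genes was not used, so that run does not show whether the fit could call them. With 2 libraries against 2 an exact permutation test cannot reach below 0.333. Alternatives used DESeq2 1.42.0, limma 3.58.1 on log2 FPKM, and other scaling, filters, covariates and libraries. Members, gene lists and tests were chosen with earlier results of these data known. The naming rule gives all 9 genes, the member with the smallest p in each single-group comparison and the interaction, the 3 genes with the smallest p of each of 5 lists, and the 3 genes nearest in pattern to each member. The choice of which library of each group was set over the other, and of further genes given with levels, was made after values were seen. Same-numbered libraries did not deviate together in all group pairs (correlation over genes -0.273 to 0.143), so numbers were not taken as pairs.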

Additional observations from a re-analysis of the deposited data

How the results depend on the processing

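Across all alternatives 0 of the 9 thalamic genes passed in any comparison; the smallest adjusted p was 0.0746 for Tcf7l2 (CAA under mock, 4 libraries with crossed replicate numbers as a block, added after seeing the data). At an unadjusted p under 0.05, members numbered 5 of 9 in that fit (1161 of 16325 genes), 2 of 9 for CAA under mock with the 4 libraries alone (725 of 16325 genes), and 2 of 9 with a term for sex for CAA under mock (934 of 17182 genes), stress in CAA (1399) and the interaction (554); in every other alternative and comparison it was 0 or 1 of 9. Calls over all genes did depend on the tool and filter. For CAA averaged they were 223 without a low-count filter and 46 in DESeq2, against 2, and for stress averaged 49 and 3, against 0. With the replicate block the calls over all genes were 2 for CAA averaged and 0 for stress averaged, 0 of them among the 9 genes. The crossed block called 14 of 16325 genes for CAA under mock and 0 of 16384 for stress in WT. The 2 libraries per group limit all of this, and the cause of the reversals below was not tested.

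Of the log2 fold changes recomputed, 591 kept direction and side of the threshold, 57 changed sign and 4 newly passed (Kitl, Fzd2 and Prkca without the filter, Prkca in DESeq2). In the male libraries alone CAA over WT gave 0.19 for Tcf7l2, 0.62 for Prkcd, 0.36 for Slc17a6, -0.96 for Shox2, 0.082 for Lef1, 0.43 for Gbx2, -0.30 for Calb2, -0.18 for Rora, 1.74 for Pou4f1 and 0.021 for Nwd2. Stress over mock there gave -0.87 for Tcf7l2, 0.13 for Prkcd, -0.51 for Slc17a6, -2.22 for Shox2, -0.26 for Lef1, -0.13 for Gbx2, -0.042 for Calb2, -0.30 for Rora and 1.39 for Pou4f1, and Prkcd for CAA under stress gave -0.22. Without the 2 libraries low in striatal markers CAA over WT gave -0.26 for Calb2, and stress over mock gave 0.76 for Tcf7l2, 0.45 for Slc17a6, 3.97 for Shox2, 0.91 for Lef1, 0.21 for Rora and 5.22 for Pou4f1, with Rora for stress in CAA at 0.23. All 9 values of stress over mock were positive there (median 0.91), against 3 of 9 with all 8 libraries. All 9 were also positive for stress in CAA (median 0.81) and for stress in WT (median 0.98). With each library left out in turn, CAA over WT ranged over -0.41 to 1.37 for Tcf7l2, -0.065 to 0.96 for Slc17a6, -4.08 to 4.20 for Shox2, -0.47 to 0.64 for Lef1, -0.12 to 0.38 for Calb2, -0.34 to 0.11 for Rora and -2.28 to 4.14 for Pou4f1. Prkcd (0.59 to 2.09) and Gbx2 (0.19 to 2.20) stayed above 0 in all of these fits. Stress over mock ranged over -1.48 to 0.23 for Tcf7l2, -0.027 to 1.24 for Prkcd, -0.93 to 0.088 for Slc17a6, -5.34 to 2.94 for Shox2, -0.75 to 0.43 for Lef1, -0.46 to 1.09 for Gbx2, -0.44 to 0.072 for Rora and -2.62 to 3.79 for Pou4f1. Calb2 stayed above 0 for stress over mock (0.053 to 0.63). Prkcd for CAA under stress ranged over -0.22 to 2.78 and Rora for stress in CAA over -0.78 to 0.23. Where 1 library stood alone in a group, its spread was taken from the other groups.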
